A study of Rattus norvegicus with 9 samples.

Results

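Macrophages in knee tissue were followed through 10 genes chosen by name, namely Csf1r, Cd68, Cd14, Cd163, Mrc1, Adgre1, Lyz2, and the 3 genes of the C1q chains, C1qa, C1qb, and C1qc. All 10 were found in a table of 32043 genes, and all 10 were among the 13898 genes tested, which had a mean FPKM (fragments per kilobase of transcript, scaled by library size) of at least 0.5 over the 9 libraries. The RNA came from knee cartilage of male Sprague-Dawley rats that were 8 weeks old at purchase, with 3 libraries in each of 3 groups. Control rats had the knee joint capsule opened and sutured only. In the model group, knee osteoarthritis (KOA) was induced by the modified Hulth method, in which the medial collateral and anterior cruciate ligaments and the medial meniscus were removed and the rats were then made to move daily. Rats of the SYD-H group were operated on as in model and then received Shengyu decoction (SYD) by gavage, where H stands for the highest of the doses used in the study. The labels name these libraries as syd without a dose, and the values under that name come from libraries called CXTB, an abbreviation that no source used here explains. The study also had an arm given celecoxib, abbreviated CXB. The results text of the study names control, model, and SYD-H as the groups sequenced. What the SYD-H values represent thus rests on that text and on the syd label. The labels do not say whether each library came from its own rat, so the p-values measure only the spread between these libraries.

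Macrophages are phagocytes that settle in most tissues, including the synovium, bone marrow, and bone that border cartilage. CSF1R, the receptor for the growth factors CSF1 and IL-34, maintains them, and it is also used by osteoclasts and their precursors. C1q is the recognition molecule of the classical complement pathway. It is built from A, B, and C chains, is made largely by macrophages and related cells rather than by the liver, and also tags dying cells for uptake. In joint tissue, macrophages are known for clearing debris and for releasing inflammatory mediators. None of these genes marks macrophages alone, since neutrophils also use Lyz2 and Cd14, and some endothelial cells use Mrc1.

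The libraries differed in composition in a way that touches every result below. Reads recovered from the FPKM values totalled 14914121 to 19510537 per library, but mitochondrial genes took 4.05 to 4.86% of them in control, 39.5 to 90.7% in model, and 23.7 to 72.7% in SYD-H. The reads left for all other genes were 14306782 to 17373645 in control, 1744769, 11106680, and 3611325 in model libraries 1, 2, and 3, and 5153851 to 12745818 in SYD-H. The authors' FPKM scale followed the non-mitochondrial reads, so FPKM was not lowered by the mitochondrial share itself, but model libraries 1 and 3 rested on few reads. The markers of the labelled tissue were also uneven. Col2a1, the main collagen of cartilage, stood at 348 to 8323 FPKM in control, 39.0 to 606 in model, and 42.4 to 609 in SYD-H, and Matn1 was listed at 0 in all 6 operated libraries. Genes of neutrophils, B cells, red cell precursors, and osteoclasts were present beside them. In bulk tissue, fewer cells of a type and less RNA per cell cannot be told apart. The part of the mitochondrial share, of depth, and of these other cells in the differences below was not tested.

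Promoters were read from RefSeq (rat build GRCr8), from 250 bases before to 50 bases after each gene start, and 9 of the 10 genes had an entry, with none for C1qc. The 4 below are shown because Lyz2 had the largest difference between control and operated tissue, Cd68 is the standard lysosomal marker of macrophages, and C1qa and C1qb were the pair with the most similar pattern across libraries. The capitals mark the core of the binding motif of PU.1, the transcription factor that directs macrophage development, as the letters GAGGAA on either strand (TTCCTC on the reverse). Lyz2 lies at chr7:54797962-54798261, minus strand. Cd68 lies at chr10:54882392-54882691, minus strand. C1qb lies at chr5:154407778-154408077, minus strand. C1qa lies at chr5:154419884-154420183, minus strand.
Lyz2: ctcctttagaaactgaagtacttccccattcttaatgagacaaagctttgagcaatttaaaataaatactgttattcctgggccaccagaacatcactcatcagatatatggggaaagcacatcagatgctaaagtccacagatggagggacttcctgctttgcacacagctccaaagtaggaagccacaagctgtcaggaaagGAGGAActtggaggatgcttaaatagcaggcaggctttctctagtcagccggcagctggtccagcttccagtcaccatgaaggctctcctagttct
Cd68: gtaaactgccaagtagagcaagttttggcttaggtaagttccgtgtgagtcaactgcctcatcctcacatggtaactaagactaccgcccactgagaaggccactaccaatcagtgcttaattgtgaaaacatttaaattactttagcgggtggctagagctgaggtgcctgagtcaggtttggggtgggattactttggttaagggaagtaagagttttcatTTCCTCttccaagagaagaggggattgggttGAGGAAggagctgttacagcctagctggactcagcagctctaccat
C1qb: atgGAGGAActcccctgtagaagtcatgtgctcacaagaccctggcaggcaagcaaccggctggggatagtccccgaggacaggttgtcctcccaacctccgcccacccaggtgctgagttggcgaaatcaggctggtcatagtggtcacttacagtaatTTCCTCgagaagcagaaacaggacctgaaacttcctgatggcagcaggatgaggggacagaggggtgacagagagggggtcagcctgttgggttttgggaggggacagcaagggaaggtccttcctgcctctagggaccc
C1qa: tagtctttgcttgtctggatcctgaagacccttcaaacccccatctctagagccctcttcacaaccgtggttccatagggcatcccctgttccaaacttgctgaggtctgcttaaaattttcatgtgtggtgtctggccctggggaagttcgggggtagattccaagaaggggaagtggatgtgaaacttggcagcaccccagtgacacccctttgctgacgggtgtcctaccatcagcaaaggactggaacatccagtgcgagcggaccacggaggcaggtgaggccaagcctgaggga

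The single Lyz2 match began 46 bases before the gene start, the C1qb matches 247 and 90 bases before it, and 1 of the 2 Cd68 matches 27 bases before it, with the other just after the start. C1qa held none in this window. Over all 9 promoters the letters were found in 7 (Adgre1, C1qb, Cd14, Cd68, Csf1r, Lyz2, and Mrc1), whereas 27.6% of 33469 rat promoters of the same length held them. The AP-1 letters TGANTCA were found in 1 of the 9, that of Cd68, which held them at 205 and 80 bases before the start, against 7.33% of all promoters. The TATA box letters TATAAA were found in 0 of the 9, against 14.2% of all promoters. Short words occur by composition alone, and these matches describe the sequence only.

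Among the 10 genes, Lyz2, which encodes the lysozyme that breaks bacterial cell walls, had the highest FPKM in every group. FPKM is given per length, so levels can be set side by side between genes. In control, Lyz2 averaged 1179 ± 327 FPKM (SD, n = 3), followed by Cd68 at 38.5 ± 6.18, C1qb at 28.6 ± 2.58, C1qa at 24.6 ± 1.29, Csf1r at 23.8 ± 5.02, and C1qc at 23.6 ± 4.09. C1qb was above C1qa in all 3 control libraries, and C1qa, Csf1r, and C1qc did not keep 1 order across them. The lower group held Cd163 at 6.68 ± 1.84, Mrc1 at 5.98 ± 0.656, Cd14 at 4.46 ± 0.918, and Adgre1 at 3.04 ± 0.700 FPKM, with Cd163 and Mrc1 above Cd14 in all 3 control libraries but in no fixed order between themselves. In SYD-H, Cd14 stood seventh of the 10 at 13.2 ± 2.997 FPKM, whereas in control only Adgre1 lay below it and in model it was the lowest.

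**Figure D1:**
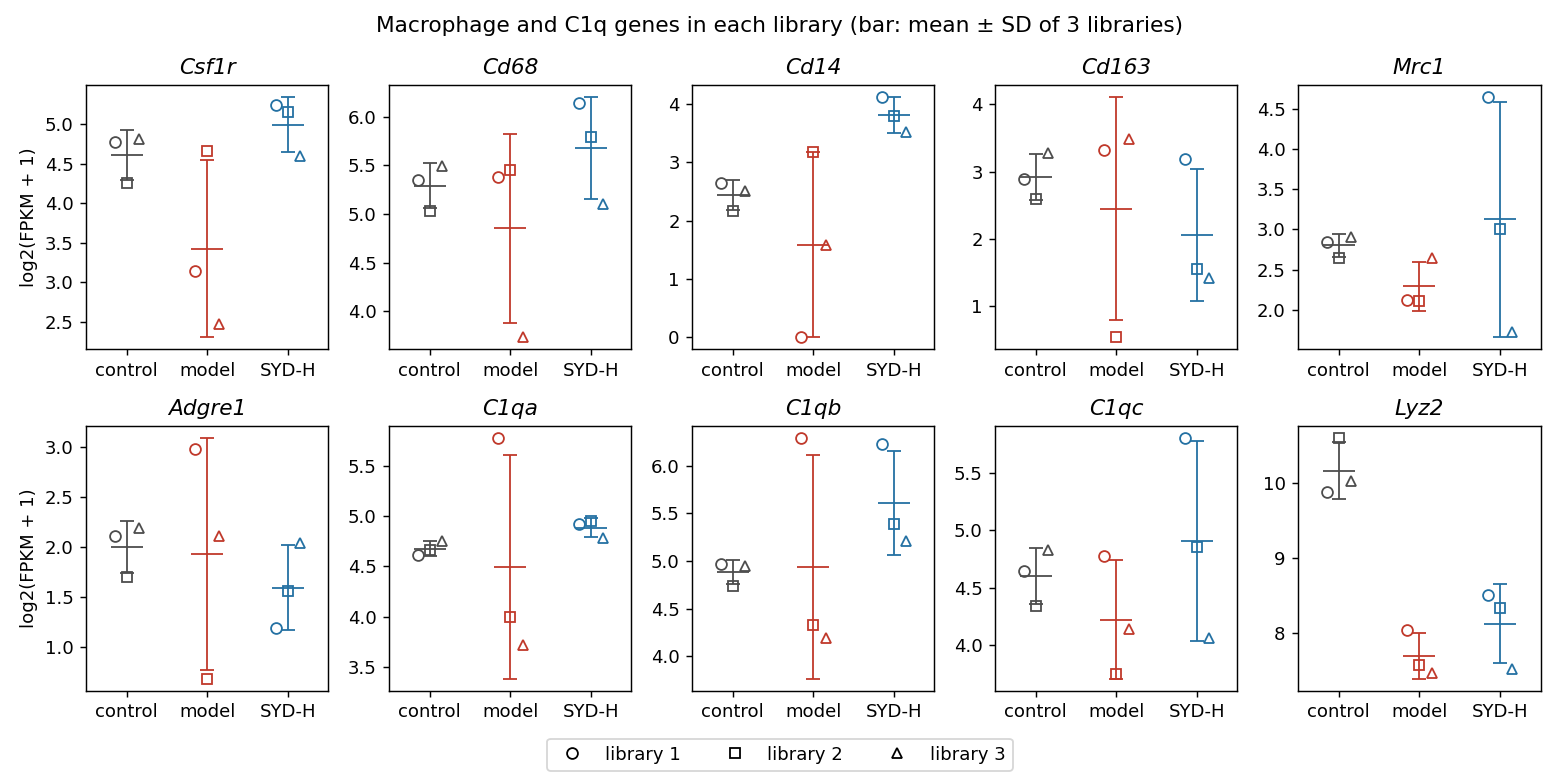
Level of each gene as log2(FPKM + 1) in the 9 libraries, one panel per gene with its own vertical range; open symbols are libraries 1 to 3, and bars give the mean ± SD of 3 libraries. Lyz2 lies lower in all operated libraries than in control, and Cd14 lies highest in the 3 SYD-H libraries. The model libraries are the most spread for Csf1r, Cd68, Cd14, Cd163, Adgre1, C1qa, and C1qb.

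The first comparison asked which genes differed between the osteoarthritic joint and the control. Lyz2 fell and was the 1 gene of the 10 that met the study's criteria for a differentially expressed gene (DEG), a log2 fold change beyond 1 in either direction with p under 0.05 before adjustment. In the background, 11.2% of all genes tested were lowered DEGs and 3.55% were raised DEGs. None of the 10 was a raised DEG. The median difference of the 10 on the log2(FPKM + 1) scale was -0.45, beside -0.23 over all genes tested.

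Lyz2 measured 942, 1553, and 1043 FPKM in control libraries 1, 2, and 3 and 264, 191, and 177 in the model libraries. Every model library lay below every control library, and no other gene of the 10 had groups without overlap. Over all genes tested, 28.7% had groups that did not overlap, counting both directions. The log2 difference was -2.47 (SE 0.39, limma with Benjamini-Hochberg adjusted p = 0.0406), and 2.59% of all genes passed an adjusted p of 0.05. The model values rested on 1859 to 9743 Lyz2 reads. The adjusted p was 0.255 with the replicate number as a block, 0.109, 0.0961, and 0.130 without control library 1, 2, or 3, 0.0506 and 0.0881 without model library 1 or 3, and 0.0504 with a filter of mean FPKM 1, within 0.0035 to 0.255 over all alternatives. The size depended on the scaling and was -4.52 after quantile normalization and -5.67 on TPM over all genes, a scale that gives every library the same sum.

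Csf1r measured 26.3, 18.1, and 27.1 FPKM in control and 7.85, 24.3, and 4.53 in model. Model library 2, with the lowest mitochondrial share of its group, lay within the control range, and the other two lay below it on 131 and 138 reads. The log2 difference was -1.19 (SE 0.57, limma adjusted p = 0.330) and missed the criteria. Without model library 2 it was -1.81 and met the criteria, and without the 2 mostly mitochondrial model libraries it was 0.05.

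Of the receptors that bind microbial or host debris, Cd14, the co-receptor that hands lipopolysaccharide to TLR4, measured 5.26, 3.46, and 4.67 FPKM in control and 0, 8.04, and 1.97 in model. Model library 1 had 0 reads, which at a floor of 3 reads allows up to 0.451 FPKM, while model library 2 was above every control library, so the groups overlapped widely. The log2 difference was -0.85 (SE 0.80, limma adjusted p = 0.609). Cd163, the haemoglobin scavenger receptor, measured 6.38, 5.01, and 8.66 FPKM in control and 9.03, 0.451, and 10.2 in model. Here model library 2 was the low one, opposite to its place for Csf1r and Cd14, and the log2 difference was -0.46 (SE 0.83, adjusted p = 0.792). With limma-voom on the recovered reads it was -3.06 and met the DEG criteria. Without the mostly mitochondrial model libraries Cd163 (-2.38) and Adgre1 (-1.32) met the DEG criteria beside Lyz2, but model library 2 then stood alone for its group and was taken to vary like the control libraries.

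The other surface and lysosomal markers were not DEGs. Mrc1, the mannose receptor, measured 6.18, 5.25, and 6.52 FPKM in control and 3.35, 3.32, and 5.26 in model. Its groups just overlapped, and the log2 difference was -0.51 (SE 0.31, limma adjusted p = 0.434). Cd68 measured 39.8, 31.8, and 44.0 FPKM in control and 40.7, 42.7, and 12.3 in model, with only model library 3 outside the control range and a log2 difference of -0.44 (SE 0.50). Adgre1, which encodes the macrophage surface protein F4/80, measured 3.33, 2.24, and 3.55 FPKM in control and 6.91, 0.607, and 3.32 in model, and the difference of -0.07 (SE 0.63) rested on 53 to 83 reads per model library.

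The C1q chains had similar mean log2 levels in control and model but a wider spread in model. C1qa measured 23.5, 24.3, and 26.0 FPKM in control and 53.7, 14.98, and 12.2 in model. C1qb measured 30.4, 25.7, and 29.8 FPKM in control and 77.3, 19.1, and 17.3 in model. C1qc measured 24.1, 19.2, and 27.4 FPKM in control and 26.3, 12.5, and 16.7 in model. For C1qa and C1qb, model library 1 was high and libraries 2 and 3 were low, on opposite sides of the control range. The log2 differences were -0.18 (SE 0.55) for C1qa, 0.05 (SE 0.58) for C1qb, and -0.38 (SE 0.33) for C1qc, with limma adjusted p-values of 0.886, 0.972, and 0.572.

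**Figure D2:**
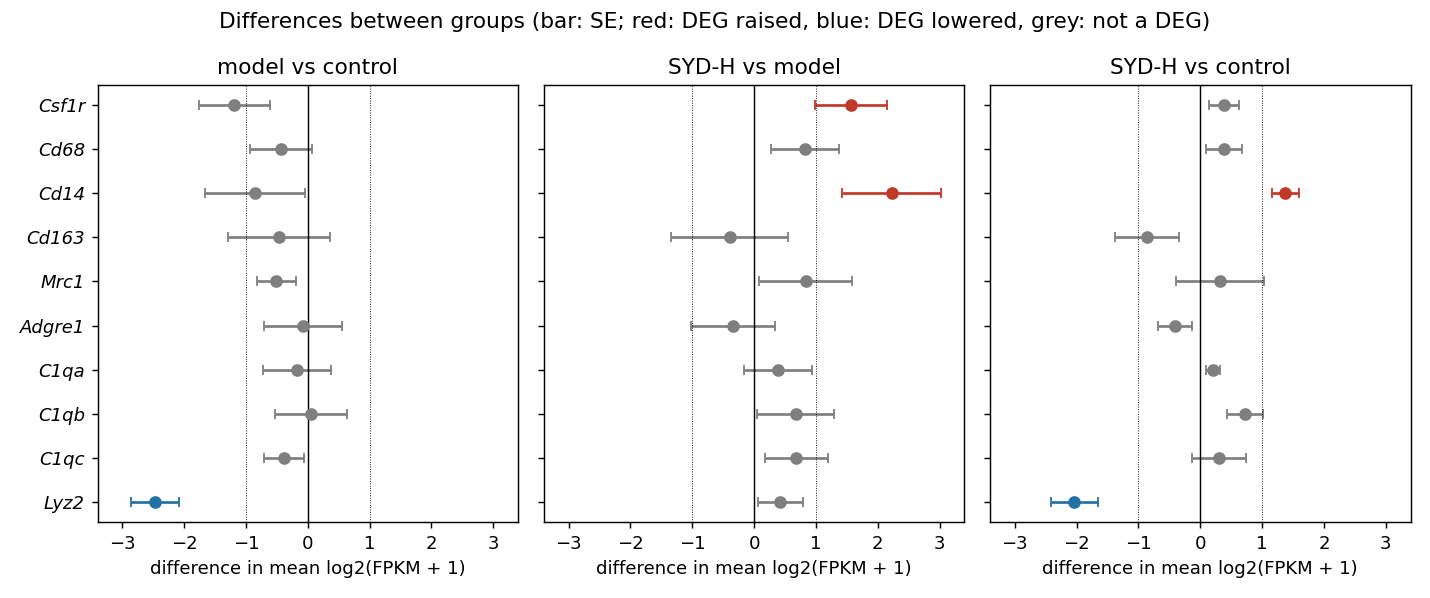
Difference in mean log2(FPKM + 1) of the 10 genes in the 3 comparisons; points are the limma estimates, bars are their standard errors, and dotted lines mark a difference of 1 in either direction. Lyz2 is a lowered DEG against control in both operated groups, Csf1r and Cd14 are raised DEGs in SYD-H against model, and Cd14 is also one in SYD-H against control.

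The second comparison asked which genes differed between treated and untreated osteoarthritic rats. Csf1r and Cd14 were higher in SYD-H and met the DEG criteria, but neither passed adjustment. Raised DEGs made up 3.62% of all genes tested and lowered DEGs 0.532%, and none of the 10 was lowered. The share of genes with an adjusted p under 0.05 was 0%. In limma, 731 of the 13898 genes tested had an unadjusted p under 0.05. Limma-voom on the recovered reads also gave 0 genes after adjustment. The median difference of the 10 was 0.68, beside 0.22 over all genes tested. The model libraries used here are the same ones as in the first comparison, so a library that was low there makes a difference upward here.

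Csf1r measured 36.8, 34.6, and 23.2 FPKM in SYD-H, beside the 7.85, 24.3, and 4.53 of model. SYD-H libraries 1 and 2 lay above every model library and library 3 lay just under model library 2. The log2 difference was 1.57 (SE 0.58, limma adjusted p = 0.723). It was no longer a DEG without model library 1 (1.43), model library 3 (1.09), SYD-H library 1 (1.45), SYD-H library 2 (1.49), or SYD-H library 3 (1.77), and without the 3 mostly mitochondrial libraries (model 1 and 3, SYD-H 3) it was 0.54.

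Cd14 measured 16.4, 12.8, and 10.4 FPKM in SYD-H, beside the 0, 8.04, and 1.97 of model. All SYD-H libraries lay above all model libraries, and Cd14 alone among the 10 had groups without overlap, beside 11.1% of all genes tested in both directions together. The log2 difference was 2.23 (SE 0.80, limma adjusted p = 0.723). It was no longer a DEG without model library 3 (2.22), SYD-H library 1 (2.07), SYD-H library 2 (2.24), or SYD-H library 3 (2.37), and without the 3 mostly mitochondrial libraries it was 0.78.

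The remaining receptors were spread within SYD-H itself. Mrc1 measured 24.1, 7.02, and 2.29 FPKM in SYD-H, so that library 1 was the highest and library 3 the lowest of all 9 libraries. The log2 difference from model was 0.83 (SE 0.75, limma adjusted p = 0.736). Cd163 measured 8.08, 1.94, and 1.67 FPKM in SYD-H, with library 1 again the highest of its group, and differed from model by -0.40 (SE 0.94). Cd68 measured 69.5, 54.2, and 33.4 FPKM, with 2 libraries above every model library, and differed by 0.82 (SE 0.54, adjusted p = 0.723). Adgre1 measured 1.28, 1.94, and 3.10 FPKM, all within the model range, and differed by -0.33 (SE 0.68).

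Lyz2 and the C1q chains did not meet the criteria between SYD-H and model. Lyz2 measured 365, 323, and 184 FPKM in SYD-H, and the difference from model was 0.43 (SE 0.37, limma adjusted p = 0.726). C1qb measured 74.1, 40.8, and 36.0 FPKM in SYD-H, C1qa 29.4, 29.8, and 26.4, and C1qc 54.9, 28.0, and 15.7. All 3 SYD-H libraries lay between the low and high model libraries for C1qa and C1qb, while SYD-H libraries 1 and 2 exceeded every model library for C1qc. The log2 differences were 0.67 (SE 0.62) for C1qb, 0.39 (SE 0.55) for C1qa, and 0.69 (SE 0.51) for C1qc. Without model library 1, C1qa and C1qb met the criteria.

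The third comparison set treated osteoarthritic rats against control. Cd14 rose and Lyz2 fell, and both passed adjustment, while the other 8 genes were not DEGs. Raised DEGs made up 7.25% of all genes tested, lowered DEGs 9.22%, and genes with an adjusted p under 0.05 made up 17.3%. The median difference of the 10 was 0.31, beside 0.00 over all genes tested. Cd14 in SYD-H was above every control library, with a log2 difference of 1.37 (SE 0.22, limma adjusted p = 0.0165), and it stayed a DEG when any single library was left out. Its adjusted p was 0.0594 with the replicate number as a block, 0.0586 without control library 2, and 0.0782 without control library 3, within 0.0102 to 0.979 over all alternatives. Rescaled to TPM over all genes, mitochondrial ones included, the difference was 0.03, on a scale on which the median of all genes moved to -1.31. Fitted with all 9 libraries together, which shares the wide spread of the model group, it was not a DEG. Lyz2 in SYD-H was below every control library, with a log2 difference of -2.04 (SE 0.38, limma adjusted p = 0.0223), which was -3.73 after quantile normalization and -3.59 on TPM. Its adjusted p was 0.0758 with the replicate number as a block, 0.0599, 0.0739, and 0.0911 without control library 1, 2, or 3, 0.0582 without SYD-H library 2, and 0.143 with no filter.

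The libraries of SYD-H and control also did not overlap for C1qa and C1qb, which makes 4 of the 10 genes beside 42.5% of all genes tested. Both stood higher in SYD-H, by 0.21 (SE 0.11, limma adjusted p = 0.255) for C1qa and 0.72 (SE 0.29, adjusted p = 0.137) for C1qb, under the fold limit of the criteria, and on the TPM scale over all genes both stood lower, by -1.31 and -0.79. The other differences were 0.38 (SE 0.24) for Csf1r, 0.38 (SE 0.29) for Cd68, 0.32 (SE 0.71) for Mrc1, 0.30 (SE 0.44) for C1qc, -0.41 (SE 0.28) for Adgre1, and -0.86 (SE 0.51) for Cd163. Without SYD-H library 1, the highest of its group for Cd163, the latter also met the DEG criteria as lowered.

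The C1q genes lie side by side on chromosome 5 in the authors' table, all on the minus strand, over 17689 bases. C1qb spans 149118846 to 149124407, C1qc 149127415 to 149131017, and C1qa 149133636 to 149136534, with gaps of 3008 and 2619 bases between them. The rat build of these positions is not given in the sources used here, and they are not those of the promoters above. The summed C1q level was 69.2 to 83.2 FPKM in control, 46.1 to 157 in model, and 78.1 to 158 in SYD-H. Within that sum, C1qb held 37.3 ± 1.60% in control, 42.5 ± 5.99% in model, and 44.7 ± 2.93% in SYD-H (SD, n = 3 each). The C1qb share was higher in all SYD-H than in all control libraries, with an exact permutation p of 0.1, the smallest that 3 libraries against 3 allow, and model against control gave an exact p of 0.2. The C1qc share ranged from 16.7% to 36.1% in model and from 20.1% to 34.7% in SYD-H, against 27.8% to 32.9% in control.

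**Figure D3:**
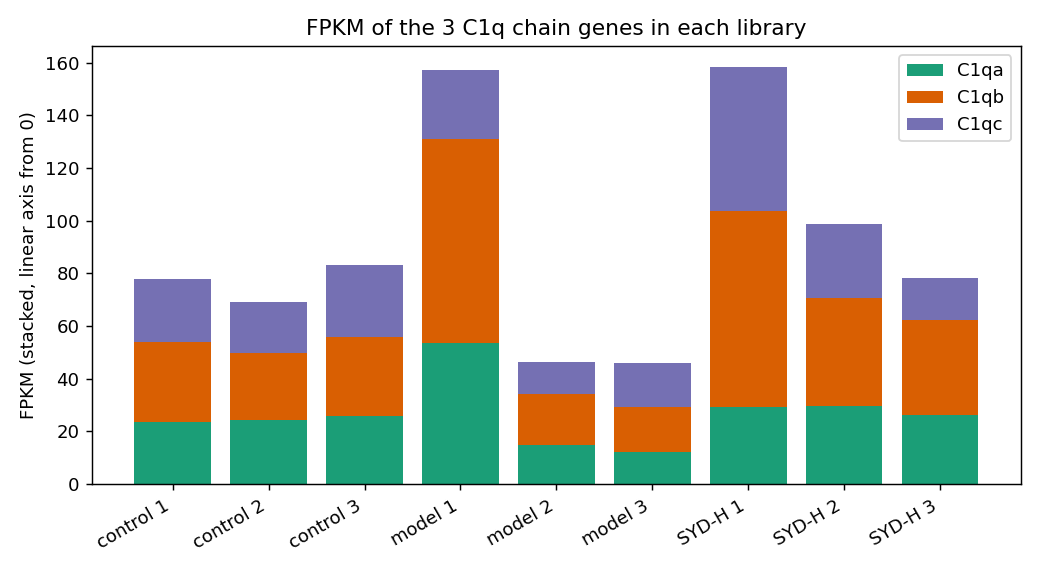
FPKM of C1qa, C1qb, and C1qc stacked for each of the 9 libraries on a linear axis from 0. Model library 1 and SYD-H library 1 reach 157 and 158 FPKM in sum, while model libraries 2 and 3 are the lowest of the 9.

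A ratio within a library does not depend on the scaling between libraries. The C1q chains made up 5.98 ± 1.64% of the summed FPKM of the 10 genes in control, 21.5 ± 9.33% in model, and 21.7 ± 2.78% in SYD-H (SD, n = 3 each). Every operated library lay above every control library, with an exact permutation p of 0.1 for each operated group against control, and SYD-H against model gave p = 1. Lyz2 took 87.5 ± 3.89% of that sum in control, 60.7 ± 6.98% in model, and 56.3 ± 3.65% in SYD-H. With Lyz2 left out of the sum, the C1q share was 46.8 to 51.3% in control, 37.0 to 69.9% in model, and 46.7 to 51.3% in SYD-H, with exact p-values of 0.7 for model against control, 0.7 for SYD-H against model, and 0.9 for SYD-H against control. Control and operated libraries were thus separate with Lyz2 in the sum and overlapped without it.

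C1qa and C1qb were also the 2 genes of the 10 with the most similar pattern, measured as the mean absolute difference between their deviations from their own mean log2(FPKM + 1) over the 9 libraries (0.20). Mrc1 and C1qc followed at 0.31 and C1qb and C1qc at 0.34. The farthest pair was Cd14 and Cd163 at 1.64. Among the 5695 other genes compared by this measure, the closest to Csf1r were Smpd1, which encodes the lysosomal acid sphingomyelinase, Tmem214, Slc4a2, the anion exchanger AE2, Emc3, and Lrp1, a large endocytic receptor, at 0.15 to 0.19. The closest to C1qb were Clec4a3, a C-type lectin receptor of myeloid cells, Clasrp, Fbxo31, Akt1s1, and Secisbp2, at 0.24 to 0.30.

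Around CSF1R, 6 further genes were listed as its ligands and the factors and adaptors of macrophage identity, and 0 were raised and 1 lowered in model against control, with a median difference of -0.23 beside the -0.23 of all genes. The lowered gene was Irf8, a transcription factor of the monocyte lineage, at 7.67 ± 0.454 FPKM in control and 2.15 ± 2.03 in model (log2 difference -1.65, SE 0.51, limma adjusted p = 0.156). In SYD-H it was again lower than in control (-1.30, SE 0.29, adjusted p = 0.0354). Csf1, the main ligand, was a raised DEG in SYD-H against model at 16.6 ± 5.93 beside 6.26 ± 4.26 FPKM (1.36, SE 0.51, adjusted p = 0.723) and against control (1.14, SE 0.33, adjusted p = 0.0658). Spi1, the gene of PU.1, Tyrobp, and Il34, the other ligand, were not DEGs in any comparison. Without the mostly mitochondrial libraries, here and in the lists below, model library 2 stood alone for its group in the comparisons with model. In model against control, 1 gene was raised and 2 lowered without model library 1, 1 raised and 1 lowered without the mostly mitochondrial libraries, and 2 lowered with limma-voom. Irf8 in model against control was lost without control library 1, 2, or 3, and Csf1 in SYD-H against model without model library 1 or 3, SYD-H library 1 or 2, or the 3 mostly mitochondrial libraries, and with limma-voom. Against control, the raised count was 0 without control library 2 or SYD-H library 1 or 2.

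Of 26 other phagocyte receptors and enzymes tested, 0 were raised and 8 lowered in model against control (Ccr2, Cybb, Fcgr2b, Itgam, Itgb2, Laptm5, Mpeg1, and Pld4), with a median difference of -0.46. On TPM over all genes, 21 were lowered in model and 0 raised, beside a median of -2.60 over all genes tested. Itgam, Itgb2, and Cybb, the integrin CD11b/CD18 and an oxidase subunit, are shared with neutrophils, and Ccr2 marks monocytes. In SYD-H against model 2 were raised (Laptm5 and Lyve1) and 0 lowered, with a median of 0.47. The 8 lowered in model became 4 without control library 3, and the 2 raised in SYD-H against model became 0 without model library 3, 1 without SYD-H library 1, 2, or 3, and 3 raised with 2 lowered without model library 2. In SYD-H against control 4 were raised (Apoe, Clec10a, Lyve1, and Trem2) and 4 lowered (Ccr2, Cybb, Itgam, and Itgb2), with a median of -0.07. Apoe, the lipid carrier made by many macrophages and other cells, stood at 47.8 ± 8.43 FPKM in control, 88.6 ± 7.55 in model, and 129.5 ± 38.3 in SYD-H, and its log2 difference between SYD-H and control was 1.39 (SE 0.27, limma adjusted p = 0.0244). The raised count against control was 2 without control library 2 or 3 or SYD-H library 1.

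Among 8 partners of CD14 and TLR4, 0 met the criteria in model against control. Lbp, which loads lipopolysaccharide onto CD14, was the 1 raised DEG both in SYD-H against model (1.40, SE 0.58, limma adjusted p = 0.723) and in SYD-H against control (1.37, SE 0.36, adjusted p = 0.0517), at 79.2 ± 33.0 FPKM in SYD-H. The raised count of SYD-H against model ranged from 0 to 4 when each library was left out, highest without model library 2, and was 0 without the mostly mitochondrial libraries. Among 7 partners of haemoglobin scavenging beside CD163, the ferritin genes Fth1 (2.11, SE 0.66, adjusted p = 0.157) and Ftl1 (1.47, SE 0.58, adjusted p = 0.243) were raised in model against control, and none met the criteria in SYD-H against model. In SYD-H against control Fth1 was raised and Blvra and Blvrb, the biliverdin reductases, were lowered. The raised count in model ranged from 0 to 3 when each library was left out, highest without model library 2, and without the mostly mitochondrial libraries 1 was raised and 4 were lowered. In SYD-H against control it ranged from 0 to 1 and the lowered count from 0 to 3, and in SYD-H against model 3 were lowered without model library 2 and 1 was raised without model library 1. In model libraries 1, 2, and 3 this list summed to 4057, 1527, and 5689 FPKM and the erythroid genes to 38222, 296, and 42469, and Cd163 was likewise lowest in library 2. The erythroid sum was 6563 to 16314 FPKM in control and 1312 to 13582 in SYD-H, and the order was different there. In control, Cd163 was lowest in library 2 (5.01 FPKM), where the erythroid sum was highest. In SYD-H, Cd163 was highest in library 1 (8.08 FPKM), where the erythroid sum was lowest. The part of red cell precursors in these values was not tested.

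Of 13 genes of the C1 complex, the classical pathway, and its receptors, 1 was lowered in model against control (C3) and 0 were raised, with a median difference of 0.10. Without model library 1, 4 were raised, and with limma-voom 3 were. On TPM over all genes, 8 were lowered and 0 raised, beside a median of -2.60 over all genes tested. In SYD-H against model, 1 was raised (Lrp1) and 0 lowered, which became 0 raised without model library 1 or 3 or SYD-H library 1 or 2 and 3 without model library 2. In SYD-H against control 4 were raised, the C1 proteases C1r and C1s, their inhibitor Serping1, and Cd93, 1 was lowered (C3), and the median was 0.54. Serping1 stood at 30.6 ± 7.01 FPKM in control, 65.3 ± 42.3 in model, and 80.7 ± 14.1 in SYD-H (SYD-H against control 1.38, SE 0.22, limma adjusted p = 0.0169). These proteins are made by fibroblasts as well as by macrophages.

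Markers of other cells also differed between the groups. Of 11 neutrophil genes tested, 6 were lowered in model and 9 in SYD-H against control, and the summed level was 3247 to 6153 FPKM in control, 81.1 to 8042 in model, and 563 to 3462 in SYD-H, so that the sums of control and model overlapped. When each library was left out, the lowered count ranged from 5 to 9 in model and from 6 to 11 in SYD-H, and in model it was 10 with quantile normalization and 11 without the mostly mitochondrial libraries. The highest sum, in model library 1, was made up largely of S100a8 (4068 FPKM) and S100a9 (3345 FPKM), while Camp was at most 90.6 FPKM in model and at least 233 in control. Of 8 B lineage genes, 5 were lowered in model and 6 in SYD-H against control, and their sum was 249 to 318 FPKM in control, 15.6 to 58.9 in model, and 16.1 to 47.2 in SYD-H, a split of control from operated libraries like that of Lyz2. The T and NK cell sum split the libraries too, at 32.6 to 49.6 FPKM in control, 0 to 2.82 in model, and 5.40 to 6.80 in SYD-H. The part of these cells in the Lyz2 result was not tested.

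Of 10 osteoclast genes, 5 were raised in SYD-H against model (Acp5, Dcstamp, Mmp9, Nfatc1, and Oscar) and 6 against control, and 0 were lowered in either. None of the 5 passed adjustment. Their count was 1 without model library 1 or 3 or SYD-H library 1, 2, or 3, 9 without model library 2, and 0 without the mostly mitochondrial libraries. Their sum was 623 to 1075 FPKM in control, 654, 1805, and 453 in model libraries 1, 2, and 3, and 2024 to 2715 in SYD-H. Model library 2, the highest of its group for the osteoclast sum, was also the highest of its group for Csf1r and Cd14. This was not particular to osteoclasts. It was also the highest of its group for the synovial fibroblast (5232 FPKM), endothelial (216 FPKM), and dendritic cell (6.14 FPKM) sums, and for non-mitochondrial reads. It was the lowest for the neutrophil, B lineage, erythroid, and skeletal muscle sums. Ctsk, the bone-resorbing protease cathepsin K, stood at 342 ± 89.8 FPKM in control, 546 ± 462 in model, and 1254 ± 228 in SYD-H (SYD-H against control 1.89, SE 0.32, limma adjusted p = 0.0185). The part of osteoclasts and of the other cell types in the Csf1r and Cd14 results was not tested.

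**Figure D4:**
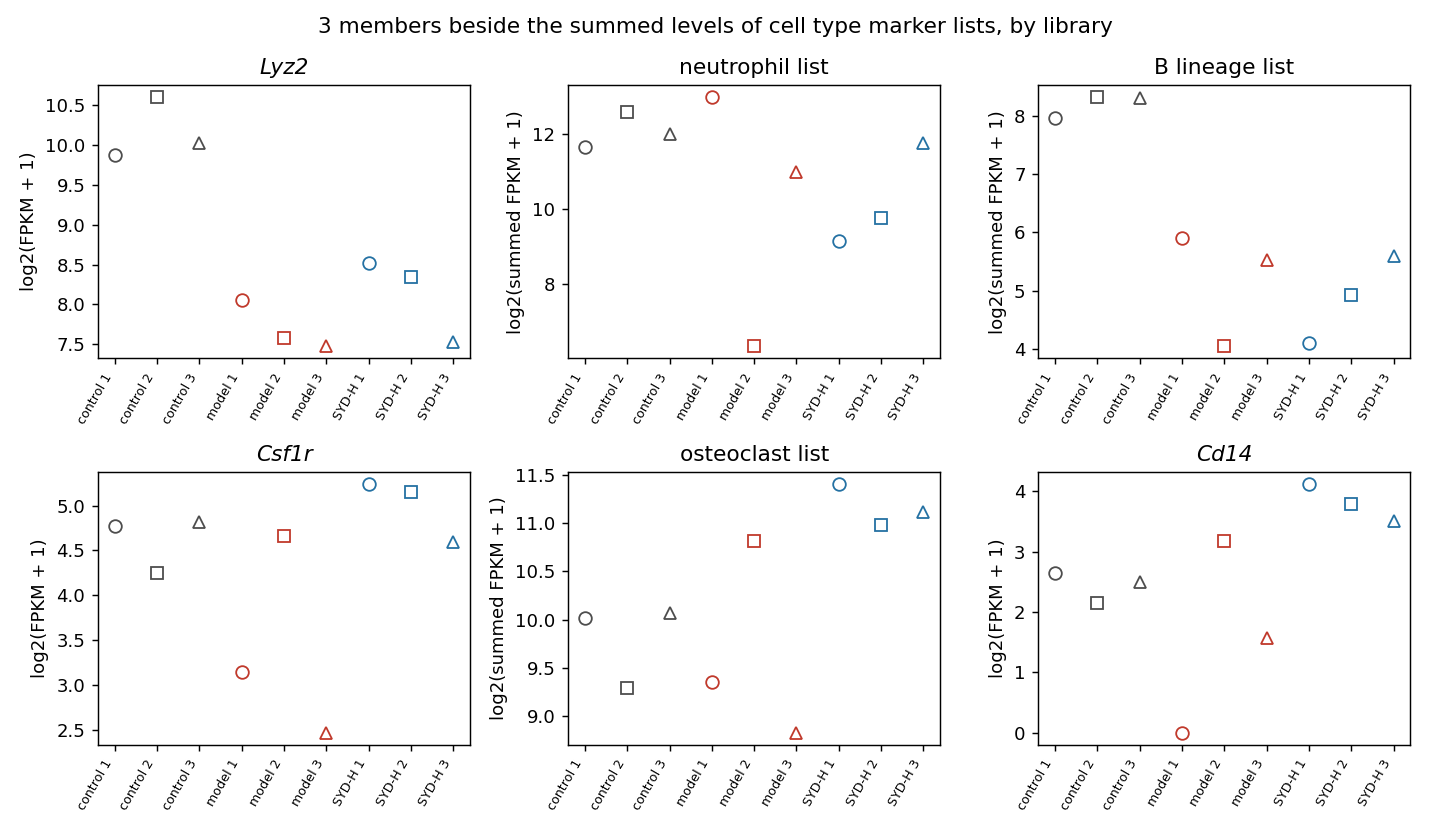
Levels of Lyz2, Csf1r, and Cd14 as log2(FPKM + 1) beside log2 of the summed FPKM + 1 of the neutrophil, B lineage, and osteoclast marker lists, for each of the 9 libraries. Of the lists shown, the B lineage sum separates control from operated libraries. Among the model libraries the osteoclast sum, Csf1r, and Cd14 are highest in library 2, as are the synovial fibroblast and endothelial sums, which are not shown.

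The remaining cell lists were read in the same way. Where model was compared, counts without the mostly mitochondrial libraries again have model library 2 alone in its group. Of 12 chondrocyte genes, 8 were lowered in model against control and 1 in SYD-H against control (Matn1), Col11a2 was raised in SYD-H against model, and the sums were 460 to 11157 FPKM in control, 153 to 790 in model, and 145 to 1220 in SYD-H. Of 7 endothelial genes, 2 were raised in model and 5 in SYD-H against control, with sums of 33.3 to 43.4, 27.1 to 216, and 95.3 to 126 FPKM, and Mrc1 is used by some of these cells. Of 8 erythroid genes, 5 were lowered in SYD-H and 0 in model against control, and of 8 synovial fibroblast genes, 3 were raised in SYD-H and 0 in model against control. Of 3 T and NK cell genes tested, 2 were lowered in each operated group and 1 was raised in SYD-H against control, and of 3 dendritic cell genes Flt3 was lowered in model. None of 6 skeletal muscle genes met the criteria in any comparison. When each library was left out, the lowered chondrocyte genes ranged from 1 (without model library 2) to 11 (without control library 2) in model against control and from 0 to 7 in SYD-H against control, and 0 were lowered in either without the mostly mitochondrial libraries. In SYD-H against model the raised chondrocyte genes ranged from 0 (without SYD-H library 1) to 6 (without SYD-H library 3), with 6 without the mostly mitochondrial libraries. The Flt3 call was lost without control library 2 and without the mostly mitochondrial libraries, and the raised T and NK cell call without SYD-H library 2. For skeletal muscle, up to 3 genes were raised in SYD-H against control (without SYD-H library 1) and up to 1 in SYD-H against model (without model library 3). In SYD-H against control the lowered erythroid genes ranged from 4 to 8 and the raised synovial fibroblast genes from 1 to 3, and the raised endothelial genes stayed at 5. In model against control the raised endothelial genes ranged from 1 to 3, and 6 were raised without the mostly mitochondrial libraries. Without the mostly mitochondrial libraries all 8 erythroid genes were lowered in model against control.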

How the data were processed

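The authors deposited FPKM values as 1 table, with a row for each gene and its identifier, name, position, and length. The submitters' processing notes name HISAT2 2.0.5 and hg38, a human build, while the table holds rat genes. The counting tool and the rat build are not given in the sources used here, and the extraction protocol in the labels speaks of retinas. The methods name only control and model for sequencing, whereas the results text also names SYD-H and the labels give the syd libraries used here. All library columns were used (0 left out).

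Whole reads were recovered from the FPKM and gene length as multiples of 1 step per library (tolerance 0.1), and a gene with no reads was given a floor of 3. Floors cover counting error only. The main test was limma 3.58.1 in R 4.3.3 (lmFit, eBayes with a trend, two-sided) on log2(FPKM + 1) of the 6 libraries compared, over 13898 genes (mean FPKM 0.5 or more), with Benjamini-Hochberg adjustment. This scale understates the change of low genes. The fit was tested on simulated data. Shares were compared with exact permutation tests (two-sided, scipy 1.17.1).

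The 10 genes and the 15 lists were chosen with earlier results of these data known. Named genes were all 10, every gene of lists of 6 or fewer (1 of them is not reported here), the 4 highest by mean FPKM of longer lists, and the 5 closest in pattern to Csf1r and to C1qb. DEGs of a list were named after their values were seen. The names Cd5l, Ticam1, C2, Cr1l, Cd4, Myh1, and Mylpf matched no entry, and of the 2 entries of Ftl1 the one with the higher mean was used. Patterns were compared among genes averaging 5 FPKM or more. Alternatives were a pseudocount of 0.1, no filter or a mean FPKM of at least 1, TPM over all or over non-mitochondrial genes, quantile normalization, 1 fit over 9 libraries, a replicate block, limma-voom on recovered reads, adjusted p as the criterion, and leaving out each library. Leaving out the 3 libraries with over 50% mitochondrial reads was added after seeing the data, as were the counts of each list with libraries left out. The former leaves model library 2 alone in its group, so its counts in the comparisons with model rest on that library for the group. With 3 libraries per group, no test for outlying libraries was made.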

Additional observations from a re-analysis of the deposited data

How the results depend on the processing

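Lyz2 was a lowered DEG against control, in both operated groups, under every alternative tried, with a size of -5.67 to -2.25 in model and -3.73 to -1.74 in SYD-H. Its limma adjusted p ranged from 0.0035 to 0.255 in model against control and from 0.0073 to 0.143 in SYD-H against control. Over all genes tested, the split of raised and lowered DEGs moved from 493 and 1553 to 944 and 1094 with quantile normalization in model against control, and from 503 and 74 to 329 and 211 in SYD-H against model. In model against control the main count was 1 DEG among the 10 genes. It became 10, all lowered, on TPM over all genes, a scale on which the median of all genes moved from -0.23 to -2.60, 2 with all 9 libraries in 1 fit (Csf1r added), 2 with limma-voom (Cd163 added), and 3 without the mostly mitochondrial libraries, where model library 2 alone stands for its group and is assumed to vary like control, and it ranged from 1 to 3 when each library was left out, with 3 without model library 2. In SYD-H against model the main count of 2 became 0 on TPM over all genes (median of all genes 1.22 in place of 0.22), 0 with an adjusted p under 0.05 as the criterion, 0 without the mostly mitochondrial libraries, 1 (Csf1r) with a pseudocount of 0.1, and 1 (Csf1r) on TPM over non-mitochondrial genes, while limma-voom gave 3, with C1qb added (1.17). It ranged from 0 to 3 when each library was left out, and was 0 without model library 3 and without SYD-H library 1, 2, or 3. In SYD-H against control the main count of 2 became 1 (Lyz2) with all 9 libraries in 1 fit, 3 (Lyz2, Cd163, and Adgre1, all lowered) on TPM over all genes, and ranged from 2 to 3 when each library was left out. With the replicate block the counts were 1, 2, and 2, the same genes as without it. Correlations of same-numbered libraries were -0.27 to 0.19, so the numbers were not taken as pairs. The C1q share differed by 10.2 to 18.9 percentage points between model and control and by 14.7 to 17.3 between SYD-H and control when each library was left out. Between SYD-H and model the difference of 0.16 points ranged from -3.25 to 5.48, and it was -0.60 from recovered reads and -4.52 without Lyz2. The following log2 differences changed sign, none of them a DEG in the main test. On TPM over all genes these were C1qb (-3.07) in model against control, Cd163 (1.19) and Adgre1 (0.95) in SYD-H against model, and Csf1r (-1.13), Cd68 (-1.14), Mrc1 (-1.04), C1qa (-1.31), C1qb (-0.79), and C1qc (-1.20) in SYD-H against control. In model against control C1qb was -0.18 on TPM over non-mitochondrial genes, -0.065 after quantile normalization, and -0.45 with limma-voom, and Adgre1 was 0.058 after quantile normalization. In SYD-H against model limma-voom gave 1.91 for Cd163 and 0.93 for Adgre1. Without the mostly mitochondrial libraries, Csf1r (0.047), Cd68 (0.16), Cd14 (0.74), and C1qb (-0.56) changed sign in model against control, and Cd163 (1.83) and Adgre1 (0.69) in SYD-H against model. When each library was left out, the ranges that crossed 0 were -0.74 to 0.12 for Cd68, -0.98 to 0.49 for Cd163, -0.60 to 0.55 for Adgre1, -0.82 to 0.21 for C1qa, and -0.62 to 0.43 for C1qb in model against control, -1.35 to 0.12 for Cd163, -0.95 to 0.19 for Adgre1, and -0.0024 to 1.02 for C1qa in SYD-H against model, and -0.44 to 1.03 for Mrc1 and -0.14 to 0.73 for C1qc in SYD-H against control. The causes were not tested. In model libraries 1 and 3 the low genes rested on few reads, down to 0 for Cd14.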
